A study of Mus musculus with 4 samples.

Results

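The genes described here encode the nucleosome remodeling factor (NURF), the chromatin-remodeling complex to which BPTF belongs, and were chosen by symbol as *Bptf*, *Smarca1*, *Smarca5*, *Rbbp4*, *Rbbp7* and *Hmgxb4*. All 6 are among the 18598 genes of the deposited RNA-seq table. NURF uses ATP hydrolysis to slide nucleosomes along DNA. BPTF is its largest subunit and the one that defines the complex. It reads trimethylated histone H3 lysine 4 through a PHD finger and acetylated histone tails through a bromodomain. SMARCA1 (SNF2L) and SMARCA5 (SNF2H) are ATPases of the ISWI family, the motors of such complexes. RBBP4 and RBBP7 are histone-binding WD40 proteins that also serve in several other chromatin complexes, and HMGXB4 is an HMG-box protein found together with NURF subunits. In blood, BPTF is studied as a factor that stem and progenitor cells need.

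RNA was taken from LSK cells, the lineage-negative, SCA-1-positive, c-KIT-positive bone marrow cells that hold the stem and progenitor cells. The mice were C57BL/6, about 3 months old, and all carried a floxed *Bptf* gene (f/f) and received polyinosinic-polycytidylic acid (pIpC), an inducer of interferon. The conditional knockout mice (*Bptf* cKO, labelled Bptf -/-) carried in addition *Mx1*-cre, a recombinase driven by an interferon-responsive promoter that is active in bone marrow cells and in other tissues. The controls were littermates, given here as *Bptf* f/f from the study's text, so the presence of cre and the loss of *Bptf* cannot be told apart. There were 2 libraries per genotype, each from the pooled LSK cells of 5 mice, 10 days after cre induction. The p-values below therefore rest on 2 pools per genotype, not on single mice. Those of limma also draw the spread of a gene in part from other genes of similar level.

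The 4 libraries held between 14091054 and 30134742 reads on the listed genes, with the deeper library in replicate 1 of each genotype. *Xist*, which is transcribed from the inactive X chromosome of females, was at 0.775 and 3.25 normalized counts in replicate 1 of *Bptf* f/f and *Bptf* cKO and at 15675 and 11843 in replicate 2. The summed level of 4 Y-linked genes in replicate 2 was 26.1% of that in replicate 1 in *Bptf* f/f and 50.05% in *Bptf* cKO. The replicate 2 pools thus mixed RNA of both sexes, in unequal shares, which bears on *Smarca1* and *Rbbp7* because both lie on the X chromosome. The differences within each replicate number, a comparison chosen after the data were seen, are therefore given beside the pooled ones.

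The markers that define the sort were present in all libraries, with *Kit* between 13634 and 17051 normalized counts and *Ly6a* (SCA-1) between 726 and 1743. These 2 genes were chosen after their values were seen, and their presence does not show that the sorted cells of the genotypes were alike. All 5 erythroid markers were lower in the mean, with summed levels of 950 to 977 normalized counts in *Bptf* f/f and 202.8 to 292 in *Bptf* cKO, and 1 of them, *Epor*, the erythropoietin receptor, passed the test (limma adjusted p = 0.0443). In limma no marker passed in the myeloid (6 tested), B cell (4 of 5), T cell (2 of 5, with *Cd3e*, *Cd3g* and *Cd8a* not listed) or megakaryocyte list (4 tested), nor among 8 interferon-stimulated genes. The summed myeloid markers ran from 9221 to 51184 normalized counts in *Bptf* f/f and from 33384 to 39824 in *Bptf* cKO, and the summed B cell markers from 1383 to 5097 and from 1758 to 2911. The T cell sums ran from 111 to 185 in *Bptf* f/f and from 72.0 to 110 in *Bptf* cKO, the megakaryocyte sums from 585 to 886 and from 429 to 565, and the sums of the interferon-stimulated genes from 4131 to 4327 and from 3532 to 4563. Of the 8 interferon-stimulated genes, 6 had a log2 fold change below 0 and 2 above, with a median of -0.49 against 0.0010 over all tested genes. The groups did not overlap for 5 of them (62.5%), all lower in *Bptf* cKO, against 23.8% of all tested genes in that direction. Of the 2 markers per list that changed most at a mean of 100 or more normalized counts, those not called in limma, all with a limma adjusted p of 0.126 or more, were *Procr* (-0.81), *Klf1* (-2.08), *Itgam* (-1.22), *Mpo* (1.11), *Cd79b* (-0.51), *Ebf1* (-0.17), *Gp9* (-0.18), *Pf4* (-0.81), *Ifit1* (-0.60) and *Mx1* (-1.27), in log2 fold change. DESeq2 in addition called *Klf1* (adjusted p = 9.73e-04), *Hbb-bt* (0.0302) and *Mx1* (0.0160). In bulk RNA, fewer cells of a type and less RNA per cell cannot be told apart, and the part of these shifts in the values below was not tested.

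The deletion removes exon 2 of *Bptf* (ENSMUSG00000040481.17), which spans 107033081 to 107132127 of chromosome 11 on the minus strand (GRCm38, GENCODE vM21). The exon lies from 107110813 to 107111635 and is coding over its whole length of 823 bp in each of the 3 transcripts that were examined. It makes up 6.84% of Bptf-203 (12036 bp, 30 exons), 6.95% of Bptf-202 and 7.16% of Bptf-201. Its length leaves a remainder of 1 on division by 3, so joining exon 1 to exon 3 shifts the reading frame. In the annotated sequence of each of the 3 transcripts, the frame then runs through 237 codons from the start codon, the last 21 of them beyond the codons that lie whole in exon 1, and reaches a TAG in exon 3. The unshortened frame of Bptf-203 has 3036 codons. The junctions are shown because they are where the floxed and the deleted transcript differ. Each is read 5′ to 3′ from the transcript sequence of Bptf-203, and capitals mark exon 2 in the first 2 and the stop codon in the third, which was joined from exons 1 and 3.
Exon 1 to exon 2: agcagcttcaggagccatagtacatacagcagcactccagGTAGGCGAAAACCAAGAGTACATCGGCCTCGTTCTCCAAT
Exon 2 to exon 3: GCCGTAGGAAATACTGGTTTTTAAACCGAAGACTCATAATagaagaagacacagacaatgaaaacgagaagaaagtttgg
Exon 1 to exon 3: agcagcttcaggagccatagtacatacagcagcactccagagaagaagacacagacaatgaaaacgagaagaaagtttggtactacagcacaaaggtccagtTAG

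**Figure D1:**
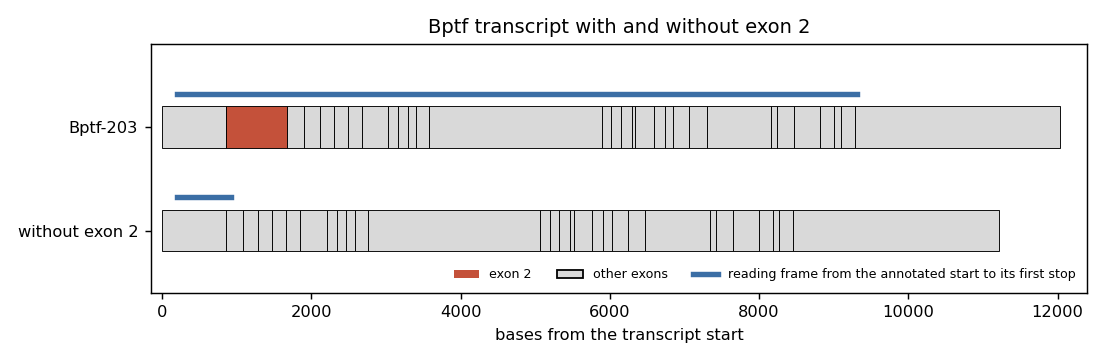
The *Bptf* transcript Bptf-203 (upper bar, 30 exons) and the same transcript without exon 2 (lower bar), along bases from the transcript start, with exon 2 in red and the reading frame from the annotated start codon to its first stop as a blue line. Exon 2 takes 823 of 12036 bases, and without it the frame ends in exon 3 after 237 codons in place of 3036.

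*Bptf* RNA fell in *Bptf* cKO LSK cells but was still abundant. The *Bptf* f/f libraries held 5520 (replicate 1) and 5850 (replicate 2) normalized counts of it, the *Bptf* cKO libraries 3398 and 3320, where a normalized count is a read count divided by the size factor of its library. Both knockout libraries lay far below both control libraries, and the 2 libraries of a genotype differed from each other by 5.80% and 2.34% of their mean. The means were 5685 ± 233 and 3359 ± 55.5 (SD, n = 2 each), so that 59.1% of the control level remained. With 1 added to each normalized count and log2 taken, limma gave a log2 fold change of -0.76 with a standard error of 0.090 and a two-sided adjusted p of 0.0439. Its 95% interval corresponds to a level 30.8% to 49.5% below the control. The difference was -0.70 within replicate 1 and -0.82 within replicate 2 on the log2 scale. The fall was 40.9%, and exon 2 takes up 6.84% to 7.16% of transcript length. A share of length equals a share of reads only where reads cover the transcript evenly. The part of the missing exon in the fall was not tested. Reads on single exons were not analysed here, and the table does not separate RNA of cells that kept the exon from RNA of cells that lost it. In the study's own read profile, exon 2 lacked reads in *Bptf* cKO LSK cells. The study also reports efficient deletion in bone marrow by genotyping and RT-PCR.

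Of the 6 NURF genes, *Bptf* was the only one with a limma adjusted p under 0.05. It was 1 of 55 genes called lower among the 14858 tested (0.37%, with 0.74% called in either direction). By size of fall *Bptf* came last of these 55, at place 1170 of all tested genes. The threshold was close: *Bptf* had an adjusted p of 0.0504 in edgeR, run by quasi-likelihood on recovered read counts, 0.0547 in limma with the libraries recentred on their medians, and 1.01e-07 in DESeq2. edgeR called 0.646% of the tested genes and DESeq2 5.44%, and neither called another NURF gene. Leaving out 1 library at a time gave adjusted p values in limma of 0.0647 (without *Bptf* f/f replicate 1), 0.0987 (without *Bptf* f/f replicate 2), 0.227 (without *Bptf* cKO replicate 1) and 0.316 (without *Bptf* cKO replicate 2), with log2 fold changes between -0.80 and -0.72. Groups that do not overlap are common in this table, with 47.0% of tested genes in either direction (23.8% lower and 23.2% higher), so the 4 NURF genes of which this was true (*Bptf*, *Smarca1*, *Rbbp4* and *Hmgxb4*) are not singled out by it.

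**Figure D2:**
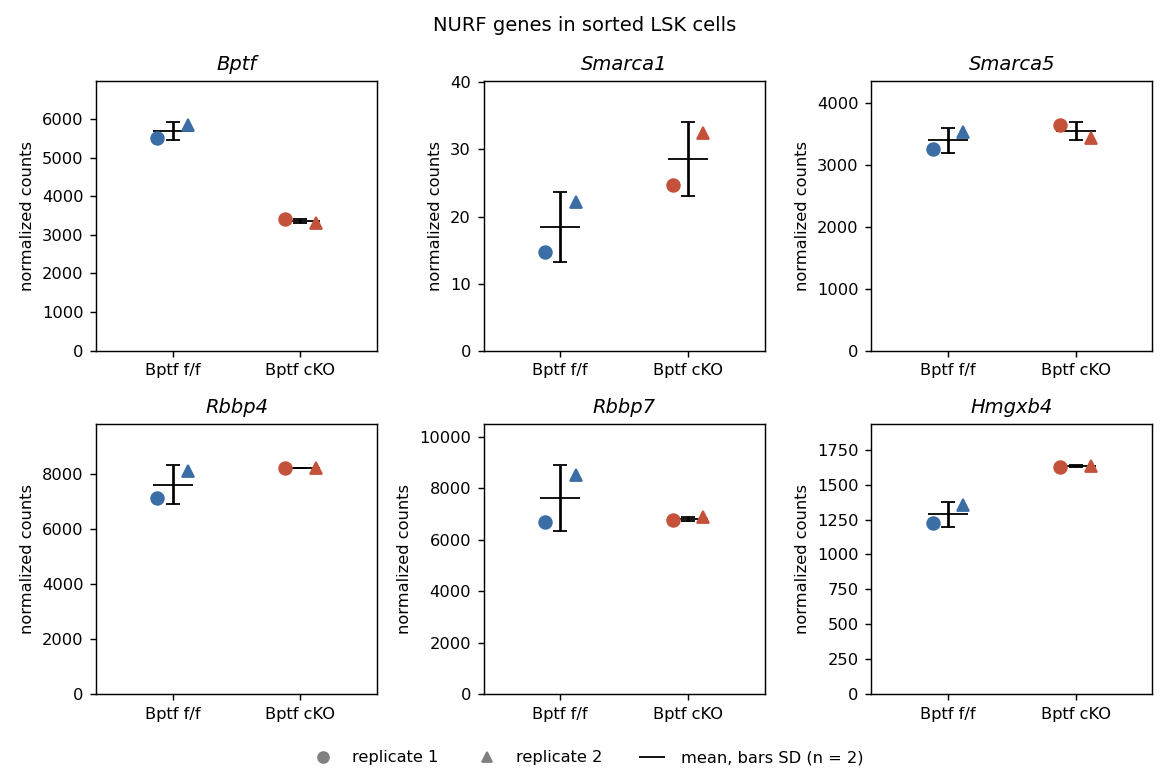
Normalized counts of the 6 NURF genes in each library of *Bptf* f/f (blue) and *Bptf* cKO (red) LSK cells, with circles for replicate 1, triangles for replicate 2, horizontal lines for the mean and bars for the SD (n = 2), each panel on its own axis from 0. *Bptf* drops from 5520 and 5850 to 3398 and 3320, and *Hmgxb4* goes from 1222 and 1351 to 1629 and 1637.

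Of the ATPases, *Smarca5* was the one that LSK cells expressed at a substantial level. *Smarca5* (chromosome 8, 80698507 to 80739497) had 3259 and 3541 normalized counts in *Bptf* f/f and 3650 and 3443 in *Bptf* cKO. The groups overlapped, and the log2 fold change was 0.061 with a 95% interval of -0.18 to 0.31 (limma adjusted p = 0.829), with 0.16 within replicate 1 and -0.041 within replicate 2. A change of *Smarca5* outside -12.0% to 23.8% lies beyond that interval. *Smarca1* (chromosome X, 47809368 to 47892974) had 14.7 and 22.2 normalized counts in *Bptf* f/f and 24.7 and 32.5 in *Bptf* cKO, from 16 to 38 reads per library. Both knockout libraries were above both controls, but the exact Poisson 95% intervals, which cover counting error only, ran from 12.7 to 36.0 for replicate 2 of *Bptf* f/f and from 17.5 to 33.9 for replicate 1 of *Bptf* cKO and so overlapped. The log2 fold change of *Smarca1* was 0.62 (95% interval -0.55 to 1.78, limma adjusted p = 0.590), with 0.71 within replicate 1 and 0.53 within replicate 2, and no change was detected. The higher value of *Smarca1* in each genotype was that of replicate 2, the library with the higher *Xist* level, and the part of sex in this was not tested.

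Per kilobase of exon the level of *Smarca5* was between 83.5 and 174 times that of *Smarca1* in the 4 libraries. *Smarca1* made up 0.680 ± 0.155% of the 2 genes' summed level per kilobase in *Bptf* f/f and 1.02 ± 0.234% in *Bptf* cKO (SD, n = 2 each, exact two-sided permutation p = 0.333, the smallest that 2 against 2 libraries allow). The promoters of this pair, 250 bases before to 50 after the RefSeq start on GRCm38.p6, are shown because the pair differs most in level. Capitals mark each CG dinucleotide, which reads the same on both strands.
Smarca5, chr8:80739410-80739709, minus strand: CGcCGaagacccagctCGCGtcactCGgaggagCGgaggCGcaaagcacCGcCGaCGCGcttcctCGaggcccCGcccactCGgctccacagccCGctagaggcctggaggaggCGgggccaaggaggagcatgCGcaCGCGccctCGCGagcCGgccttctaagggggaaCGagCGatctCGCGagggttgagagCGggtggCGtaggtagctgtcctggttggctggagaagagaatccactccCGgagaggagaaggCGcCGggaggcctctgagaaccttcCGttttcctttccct
Smarca1, chrX:47892564-47892863, minus strand: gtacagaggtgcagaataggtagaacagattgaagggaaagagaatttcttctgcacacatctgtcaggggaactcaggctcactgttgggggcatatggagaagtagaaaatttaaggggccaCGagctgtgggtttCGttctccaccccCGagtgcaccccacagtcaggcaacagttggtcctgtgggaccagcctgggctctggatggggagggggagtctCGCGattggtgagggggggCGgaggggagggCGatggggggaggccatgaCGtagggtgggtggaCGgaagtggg
The *Smarca5* promoter holds 32 CG dinucleotides, a number that 9.52% of the 32851 RefSeq promoters reach, and the *Smarca1* promoter 9, which 45.8% reach. The promoters of *Bptf*, *Rbbp4* and *Rbbp7* hold 39, 39 and 38, and the entries of *Hmgxb4* 22 and 1, against a median of 7 over all promoters. The *Smarca1* window lies wholly inside the gene as GENCODE annotates it, past its GENCODE start at 47892974. The *Smarca5* window crosses the GENCODE start of its gene at 80739497, so the windows of this pair are not like regions. Both *Hmgxb4* entries also lie inside the annotated gene.

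The histone-binding subunits *Rbbp4* and *Rbbp7* were the most abundant NURF genes and neither passed the test. *Rbbp4* (chromosome 4, 129307100 to 129335370) had 7137 and 8126 normalized counts in *Bptf* f/f and 8248 and 8234 in *Bptf* cKO. The knockout libraries stood just above the higher control, and the log2 fold change was 0.11 (95% interval -0.15 to 0.37, limma adjusted p = 0.664), with 0.21 within replicate 1 and 0.019 within replicate 2. *Rbbp7* (chromosome X, 162760402 to 162779092) had 6710 and 8521 normalized counts in *Bptf* f/f and 6754 and 6867 in *Bptf* cKO. Replicate 2 of *Bptf* f/f stood apart, and the other 3 libraries lay within 157 normalized counts of each other. The log2 fold change of *Rbbp7* was -0.15 (95% interval -0.49 to 0.19, limma adjusted p = 0.664), with 0.0094 within replicate 1, -0.31 within replicate 2 and 0.021 without replicate 2 of *Bptf* f/f. That library had the most *Xist* reads and the lowest Y-linked sum, and the part of sex in the *Rbbp7* value was not tested.

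*Rbbp7* made up 74.9 ± 1.45% of the summed level per kilobase of the RBBP pair in *Bptf* f/f and 71.3 ± 0.265% in *Bptf* cKO (SD, n = 2 each). Both knockout libraries were below both controls, a difference of -3.59 percentage points (exact two-sided permutation p = 0.333). With the longest annotated transcript as length in place of all exons, the shares were 67.3 ± 1.70% and 63.2 ± 0.301% (SD, n = 2 each). The size of the share thus depends on the length used. The coding sequences of *Rbbp4* and *Rbbp7* are identical at 78.4% of aligned positions, and those of *Smarca1* and *Smarca5* at 73.5%, with no identical run over 20 and 21 bases in the respective alignment. None of the 50-base windows of the longest coding transcripts was shared within either pair, so reads of at least that length could be told apart between them. Other loci did share windows: 35.3% of those of *Smarca5* also occur in other annotated transcripts, most of them processed pseudogenes, 33.8% of those of *Rbbp4*, mainly in genes that overlap it on the opposite strand, 15.1% of those of *Rbbp7*, and none of *Bptf* or *Smarca1*. The listed *Smarca5* pseudogenes had at most 8.32 normalized counts in any library and the genes opposite *Rbbp4* at most 8.53, while *Txlng*, opposite *Rbbp7*, reached 619. How multi-mapping or overlapping reads were counted is not given in the sources used here.

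*Hmgxb4* (chromosome 8, 74993356 to 75031978) had the lowest limma p among the NURF genes other than *Bptf*, in the direction opposite to *Bptf*. It had 1222 and 1351 normalized counts in *Bptf* f/f and 1629 and 1637 in *Bptf* cKO, from 975 to 2506 reads. Both knockout libraries were above both controls, and the means of 1287 ± 91.2 and 1633 ± 5.65 (SD, n = 2 each) differed by 26.9% of the control mean. The log2 fold change was 0.34 (95% interval 0.076 to 0.61), with 0.41 within replicate 1 and 0.28 within replicate 2. Over all tested genes its limma adjusted p was 0.229. The unadjusted p was 0.0210 in limma, below 0.05 as for 15.7% of the tested genes. The adjusted p of *Hmgxb4* was 0.234 in edgeR and 0.210 in DESeq2, so the difference did not pass the correction by any of the 3 tools without a replicate term.

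**Figure D3:**
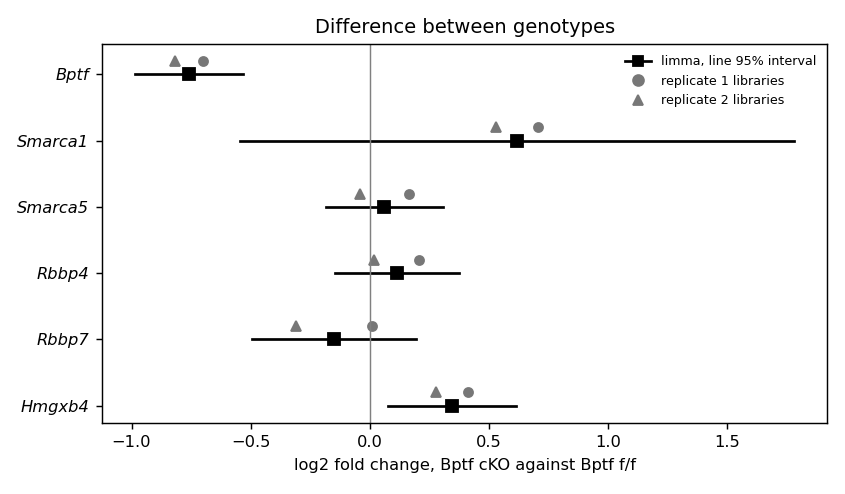
Log2 fold change of each NURF gene in *Bptf* cKO against *Bptf* f/f LSK cells, with black squares for the limma estimate over 4 libraries, black lines for its 95% interval, and grey circles and triangles for the differences within replicate 1 and replicate 2. The interval of *Bptf* runs from -0.99 to -0.53 and that of *Smarca1*, the gene with the fewest reads, from -0.55 to 1.78.

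Between genes, levels were compared as normalized counts per kilobase of annotated exon. In *Bptf* f/f the order was *Rbbp7* (2618 ± 440), *Rbbp4* (873 ± 80.0), *Smarca5* (437 ± 25.7), *Bptf* (404 ± 16.6), *Hmgxb4* (246 ± 17.4) and *Smarca1* (3.02 ± 0.861), all SD over n = 2. *Smarca5* and *Bptf* were the closest neighbours, with 419 and 455 against 392 and 415, a gap between their nearest libraries smaller than the spread of either gene. The other neighbours in the order were separated by more than the spread of their libraries. In *Bptf* cKO, *Bptf* stood at 239 ± 3.94 (SD, n = 2), below *Hmgxb4* at 312 ± 1.08 (SD, n = 2), and the other 4 genes kept their places. Using the longest annotated transcript in place of all exons left the order of the 6 genes the same in both genotypes. Among the 14608 tested genes with an annotated length, *Rbbp7* was at percentile 98.4 by this level, *Rbbp4* at 92.2, *Smarca5* at 81.1, *Bptf* at 79.4, *Hmgxb4* at 66.9 and *Smarca1* at 3.07.

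**Figure D4:**
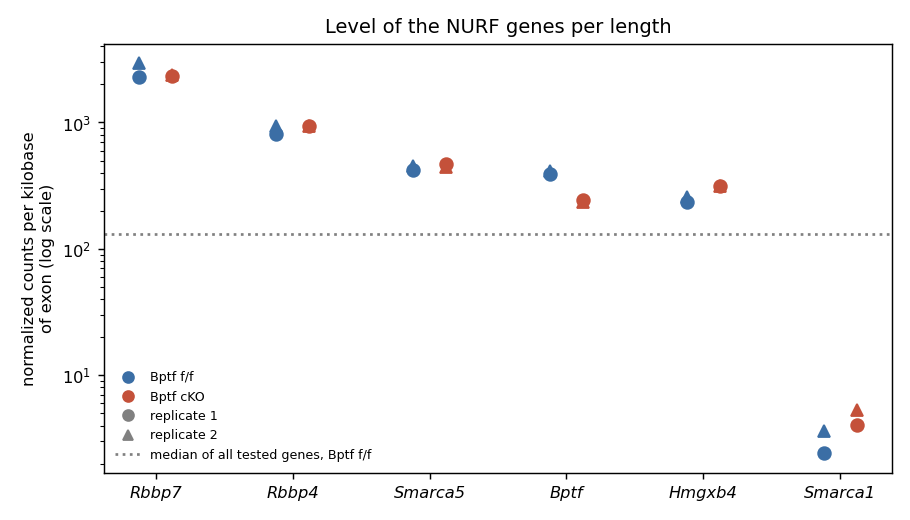
Normalized counts per kilobase of exon, on a log axis, for the 6 NURF genes in each library of *Bptf* f/f (blue) and *Bptf* cKO (red), ordered by the *Bptf* f/f mean, with circles for replicate 1 and triangles for replicate 2. The dotted line is the median of all tested genes in *Bptf* f/f, 130 normalized counts per kilobase, which all members but *Smarca1* exceed in every library.

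Ratios within a library do not depend on the size factors. Per kilobase, *Bptf* was at 0.936 and 0.912 of the level of *Smarca5* in *Bptf* f/f and at 0.514 and 0.533 in *Bptf* cKO. Relative to *Rbbp4* it went from 0.480 and 0.447 to 0.256 and 0.250, and relative to *Hmgxb4* from 1.68 and 1.61 to 0.775 and 0.753. Relative to *Rbbp7*, the ratio went from 0.170 and 0.142 to 0.104 and 0.0999. In each of these ratios both knockout libraries were below both controls, and against the mean log2 level of *Smarca5*, *Rbbp4*, *Rbbp7* and *Hmgxb4* the log2 difference of *Bptf* was -0.85.

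Further genes tied to NURF were examined next. 0610010K14Rik, whose RefSeq synonym is *Bap18* and which encodes a protein found with BPTF, had 48.8 and 27.7 normalized counts in *Bptf* f/f and 58.5 and 50.8 in *Bptf* cKO. The annotated exons of this gene overlap those of Gm21988 on the same strand over 46.6% of their length, so its level is uncertain. The fly NURF subunit NURF38 is an inorganic pyrophosphatase, the enzyme that splits pyrophosphate, and its mouse homologues are the cytosolic *Ppa1* and the mitochondrial *Ppa2*. *Ppa2* fell in both *Bptf* cKO libraries, to 187 and 148 normalized counts against 751 and 771 in the controls, which is -2.18 ± 0.18 (SE) in log2 fold change, with an adjusted p of 0.0207 in limma and 3.89e-18 in DESeq2. Its adjusted p in limma was 0.0642 without *Bptf* f/f replicate 2, 0.100 without *Bptf* cKO replicate 1 and 0.148 without *Bptf* cKO replicate 2. *Ppa1* had 1997 and 3085 normalized counts in *Bptf* f/f and 2869 and 3636 in *Bptf* cKO, with overlapping groups, a log2 fold change of 0.38 and a limma adjusted p of 0.512. Leaving out 1 library moved the value of *Ppa1* between 0.066 (without *Bptf* f/f replicate 1) and 0.69 (without *Bptf* f/f replicate 2). Neither enzyme is an established subunit of mouse NURF.

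SMARCA5 also works with other partners, and RBBP4 and RBBP7 are shared with deacetylase, methyltransferase and histone chaperone complexes. Over 6 lists of such genes, the NURF38 homologues included, 55 genes were tested, and 1 fell (*Ppa2*) and 1 rose (*Chd5*) in limma, which called 0.37% of all tested genes in each direction. Their median log2 fold change was -0.019, beside 0.0010 over all tested genes, and the groups did not overlap for 47.3% of them, beside the 47.0% over all genes. Of 8 other ISWI partners none passed. *Baz1a*, the ACF1 subunit that pairs with SMARCA5, had 2244 ± 231 normalized counts in *Bptf* f/f and 3182 ± 308 in *Bptf* cKO (SD, n = 2 each), or 0.50 higher on the log2 scale, with an adjusted p of 0.162 in limma and 0.0349 in DESeq2. *Cecr2*, which pairs with SMARCA1 or SMARCA5, had 691 and 125 normalized counts in *Bptf* f/f and 259 and 147 in *Bptf* cKO, so that 1 control library decided its log2 fold change of -0.59. Without that library, *Bptf* f/f replicate 1, the value was 0.64.

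Of 13 NuRD subunits, the histone deacetylase complex built on CHD remodelers, 1 passed. *Chd5*, a CHD remodeler best known from neurons and testis, rose in both *Bptf* cKO libraries, to 163 and 178 normalized counts against 24.0 and 20.8 in the controls, which is 2.87 ± 0.29 (SE) in log2 fold change, with an adjusted p of 0.0316 in limma and 4.11e-09 in DESeq2. *Chd5* had 15 reads in its lowest library, and its limma adjusted p was 0.0669 without *Bptf* f/f replicate 2, 0.203 without *Bptf* cKO replicate 1 and 0.306 without *Bptf* cKO replicate 2. *Chd4*, the main NuRD remodeler, was at 16900 to 18396 normalized counts in all libraries. *Chd3* and *Gatad2b* had log2 fold changes of -0.22 and -0.14 (limma adjusted p = 0.367 and 0.550). None passed among 11 subunits of PRC2, the H3K27 methyltransferase complex, where *Aebp2* and *Epop* had log2 fold changes of 0.36 and 0.31 (limma adjusted p = 0.262 and 0.818). None passed among 13 Sin3 deacetylase genes, where *Ing2* and *Arid4a* had -0.54 and -0.40 (limma adjusted p = 0.408 and 0.352). The value of *Ing2* ran from -0.90 without *Bptf* f/f replicate 1 to -0.17 without *Bptf* f/f replicate 2, and that of *Arid4a* from -0.59 without *Bptf* cKO replicate 1 to -0.21 without *Bptf* cKO replicate 2. None passed among 7 genes of the chaperone CAF-1, the acetyltransferase HAT1 and the cell-cycle complex MuvB, where *Lin52* and *Chaf1b* had -0.24 and -0.18 (limma adjusted p = 0.612 and 0.457). The medians of the ISWI, NuRD, PRC2, Sin3 and last lists were -0.059, -0.022, 0.096, -0.079 and -0.019.

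**Figure D5:**
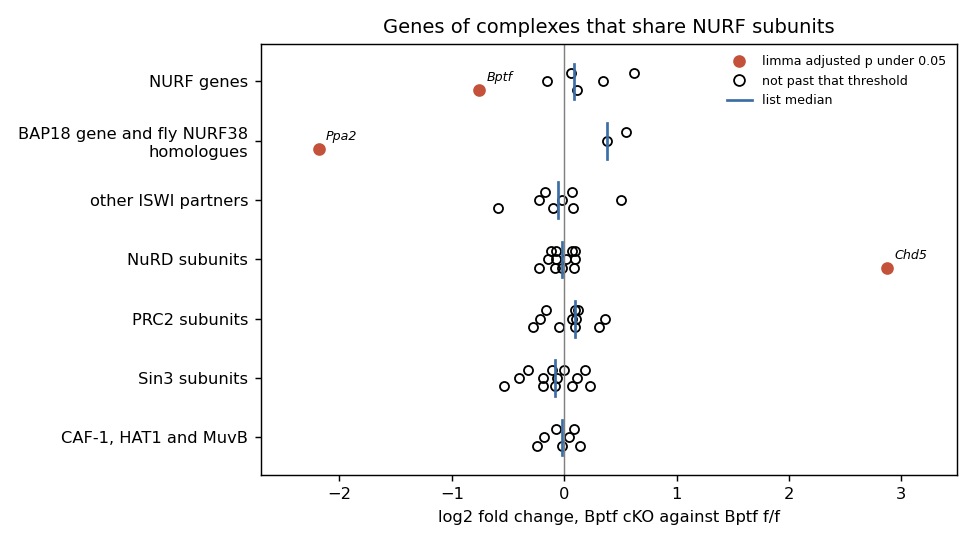
Log2 fold change in *Bptf* cKO against *Bptf* f/f LSK cells for each gene (circle) of the NURF list and of 6 lists of related genes, filled in red where the limma adjusted p is under 0.05, with the list median as a blue line. The medians of the last 5 lists lie between -0.079 and 0.096, and *Ppa2* (-2.18), *Bptf* (-0.76) and *Chd5* (2.87) are the genes past the threshold.

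The genes whose pattern over the 4 libraries was most like that of *Bptf* were picked among 5244 others whose mean level reached 1000 normalized counts. Likeness was the root mean square difference of log2 levels centred on each gene's mean, whose median over these genes was 0.417. The 5 nearest were *Epb41l4b* (0.038), *Rnf216* (0.043), *Zmym5* (0.049), *Sgms1* (0.056) and *Clstn1* (0.059). *Epb41l4b*, which encodes a FERM-domain protein, had 2569 and 2802 normalized counts in *Bptf* f/f and 1677 and 1534 in *Bptf* cKO. *Rnf216*, a ubiquitin ligase gene, had 2434 and 2651 in *Bptf* f/f and 1504 and 1576 in *Bptf* cKO. None of the 5 passed an adjusted p of 0.05 in limma, with values from 0.0524 to 0.0760. They were picked for likeness to *Bptf* in these same libraries, so these adjusted p values are tied to that choice and test nothing further. With 4 libraries this likeness is a description of a shared fall between the genotypes.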

How the data were processed

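Bulk RNA-seq of sorted LSK cells was available as 1 table of 18598 genes. Per the labels, the authors' processing used HISAT2, featureCounts and DESeq2 on GRCm38 (mm10). Versions and counting options are not given in the sources used here. The deposited per-library values are a signal, gene counts divided by a size factor of each library, with their mean beside them. The authors' deposited log2 fold change, its standard error and test score, and the p-value and adjusted p-value of their own comparison were not used. Dividing each library by its smallest value above 0, taken as 1 read, returned whole reads for 100% of values (tolerance 0.001 reads). No listed gene had fewer than 11 reads in total.

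The 14858 genes with a mean level of 10 or more, all 6 NURF genes included, were tested with limma 3.58.1 (R 4.3.3) after adding 1 to each normalized count and taking log2 (mean-variance trend, genotype only, Benjamini-Hochberg over all tested genes, two-sided). This scale understates the change of low genes. edgeR 4.0.16 and DESeq2 1.42.0 were run on the recovered reads as alternatives. The fits were run on simulated reads with the same added spread for every gene and no effect of the replicate number. That run checks the code and does not give the error rates of the fits in these libraries. The members, gene lists and tests were chosen with earlier results of these data known. Named beside the NURF genes were list genes with a limma adjusted p under 0.05, the 2 genes of each list with the largest change at a mean of 100 or more, and the 5 genes most like *Bptf*. *Kit*, *Ly6a*, *Chd4* and 0610010K14Rik were added after their values were seen. The counts of the LSK marker list and 1 gene of it are not reported here. Annotation, lengths (98.3% of tested genes) and transcript sequences came from GENCODE vM21 and promoters from RefSeq (all 6 symbols matched).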

Additional observations from a re-analysis of the deposited data

How the results depend on the processing

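The log2 fold change of *Bptf* stayed below 0 under every alternative run, and its adjusted p passed 0.05 in limma with pseudocounts of 0.5 and 10, without the filter, with a mean of at least 50, with quantile normalization and in DESeq2. It did not pass with libraries recentred on their medians (-0.71, adjusted p = 0.0547), in limma without the trend (-0.76, adjusted p = 0.178) or in edgeR (-0.77, adjusted p = 0.0504), nor with 1 library left out (-0.80 to -0.72), where fewer libraries enter the fit. Recentring moved the log2 fold changes of all genes by the same amount. Values chosen after seeing the data were -0.70 and -0.82 for *Bptf* in the replicate 1 and replicate 2 pairs alone, -0.85 for *Bptf* scaled to 4 other NURF genes, and in these pairs 0.71 and 0.53 for *Smarca1*, 0.16 and -0.041 for *Smarca5*, 0.21 and 0.019 for *Rbbp4*, 0.0094 and -0.31 for *Rbbp7* and 0.41 and 0.28 for *Hmgxb4*. *Rbbp7* ran from -0.32 to 0.021 with 1 library left out, the latter without *Bptf* f/f replicate 2. The list genes *Cecr2* (-1.82 to 0.64, above 0 without *Bptf* f/f replicate 1) and *Epop* (-0.26 to 0.88, with -0.26 without *Bptf* f/f replicate 2 and -0.15 without *Bptf* cKO replicate 1) also changed sign. *Smarca1* had no value at a mean of at least 50.

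The whole table gave 55 genes lower and 55 higher in limma, 0 and 2 without the trend, 490 and 318 in DESeq2, and 0 to 41 lower and 1 to 76 higher with 1 library left out. Without the trend 2036 genes had an unadjusted p under 0.05. The cause of these differences was not tested. Partner genes called were 1 lower and 1 higher in limma, 0 and 0 without the trend, 2 higher in DESeq2 with *Baz1a* added, and 0 to 1 in either direction with 1 library left out.

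The labels give no meaning to the replicate numbers, and the deviations of libraries with the same number from their group means had a correlation of 0.452 across genes. With the replicate block, limma called 1242 genes lower and 896 higher, 14.4% of the tested genes, which include all 110 called without it, and edgeR 1276 and 856. Partner genes called with the block were 3 lower and 4 higher by either tool. With it *Bptf* had an adjusted p of 1.54e-04 and *Hmgxb4*, at 0.34, of 0.0351 in limma and 0.0286 in edgeR, and no other NURF gene changed its side of the threshold. The longest transcript as length left 6 of 6 NURF genes at their places. With 16 to 38 reads, *Smarca1* had a counting error of 16.2% to 25.0% of its level, while for the other 5 NURF genes it was at most 3.20% of the level.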
